A study of Mus musculus with 18 samples.

Results

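Planar cell polarity is the alignment of cells within the plane of a tissue, and Wnt5a is the secreted ligand most often tied to it. The 10 genes described here are 3 ligands (Wnt5a, Wnt5b and Wnt11), 2 receptors (Ror2 and Ptk7) and 5 core polarity components (Prickle1, Prickle2, Vangl1, Vangl2 and Celsr1). They were chosen by name, with earlier results of these data known. Every probe set annotated to exactly 1 gene symbol among them was taken. This gave 20 of the 34945 probe sets with a single gene symbol on the array. Of the 20, 17 passed the filter on dim signal and were tested, and each of the 10 genes kept at least 1.

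RNA came from embryoid bodies, aggregates in which embryonic stem cells differentiate, made from the mouse stem cell line A2loxFMsgn1 of strain 129P2. In this line doxycycline turns on a FLAG-tagged copy of Msgn1, a transcription factor of the basic helix-loop-helix class that the presomitic mesoderm, from which somites form, makes in embryos. All groups share this line and had been differentiated for 2 days. Induced embryoid bodies then received 1 µg/ml doxycycline and were collected 12, 24 or 48 h later, and uninduced ones were cultured for the same times without it, with 3 arrays in each of the 6 groups. The labels call the 3 arrays biological replicates without saying whether they came from separate cultures, so the p-values measure the spread between these arrays. A single transgenic line was used, induction was earlier than the line's own presomitic markers appear, and the stem cells had been grown on mitomycin-treated mouse fibroblasts before aggregation.

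In the polarity pathway, Vangl and Prickle proteins gather on one side of a cell and Frizzled, Dishevelled and their partners on the other, while the cadherin Celsr1 bridges neighbouring cells. Wnt5a and Wnt11 feed into it through Ror2, Ptk7 and Frizzled receptors, largely without β-catenin. In vertebrate embryos the pathway is known for driving the convergence and extension of mesoderm at gastrulation, and loss of Wnt5a or Ror2 in mice shortens the body axis.

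Values are array signals on the authors' linear scale. Tests were run on log2(signal + 32), which understates the change of dim probe sets, and a probe set was called when its adjusted p from limma over 23004 probe sets was under 0.05. Signals of different probe sets are not set against each other, since probes differ in brightness. The exception is the summed signals of marker lists, in which brighter probe sets weigh more. Array medians lay between 18.8 and 22.2 and replicate arrays correlated at 0.990 to 0.994 across probe sets. The Msgn1 probe set averaged 70.6, 59.0 and 51.4 in induced arrays at 12, 24 and 48 h, against 19.0, 11.2 and 6.14 in uninduced arrays; whether it also reads the transgene was not tested. All 8 markers of pluripotent cells and epiblast were well above the dim range on every array, with signals of at least 389.

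Wnt5a and Prickle1 were the members with the largest responses to induction. Wnt5a was higher in induced embryoid bodies at all 3 times, whereas Prickle1 was higher at 12 and 24 h and lower at 48 h. Ror2 was higher at 24 h, and Wnt5b and Ptk7 at 48 h. Prickle2, Wnt11, Vangl1, Vangl2 and Celsr1 had no called induction effect at any time.

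In counts, 4 of the 17 member probe sets were called at 12 h, 5 at 24 h and 7 at 48 h, from 2, 3 and 4 genes. All were higher except 1 at 48 h, that of Prickle1. The count at each time, and the median given below, include Wnt5a 1437673_at, which reached the filter only through its induced arrays. Over all probe sets 0.774%, 2.76% and 9.78% were called at these times. The members were chosen with earlier results of these data known. Their counts and medians beside those of all probe sets are therefore description and not a test. The median induction effect of the 17 was 0.20, 0.18 and 0.03 on the log2 scale, against -0.00032, 0.0031 and -0.00043 for all 23004. Without uninduced 48 h replicate 2 or induced 48 h replicate 3, the count at 48 h was 4 probe sets from 2 genes.

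**Figure D1:**
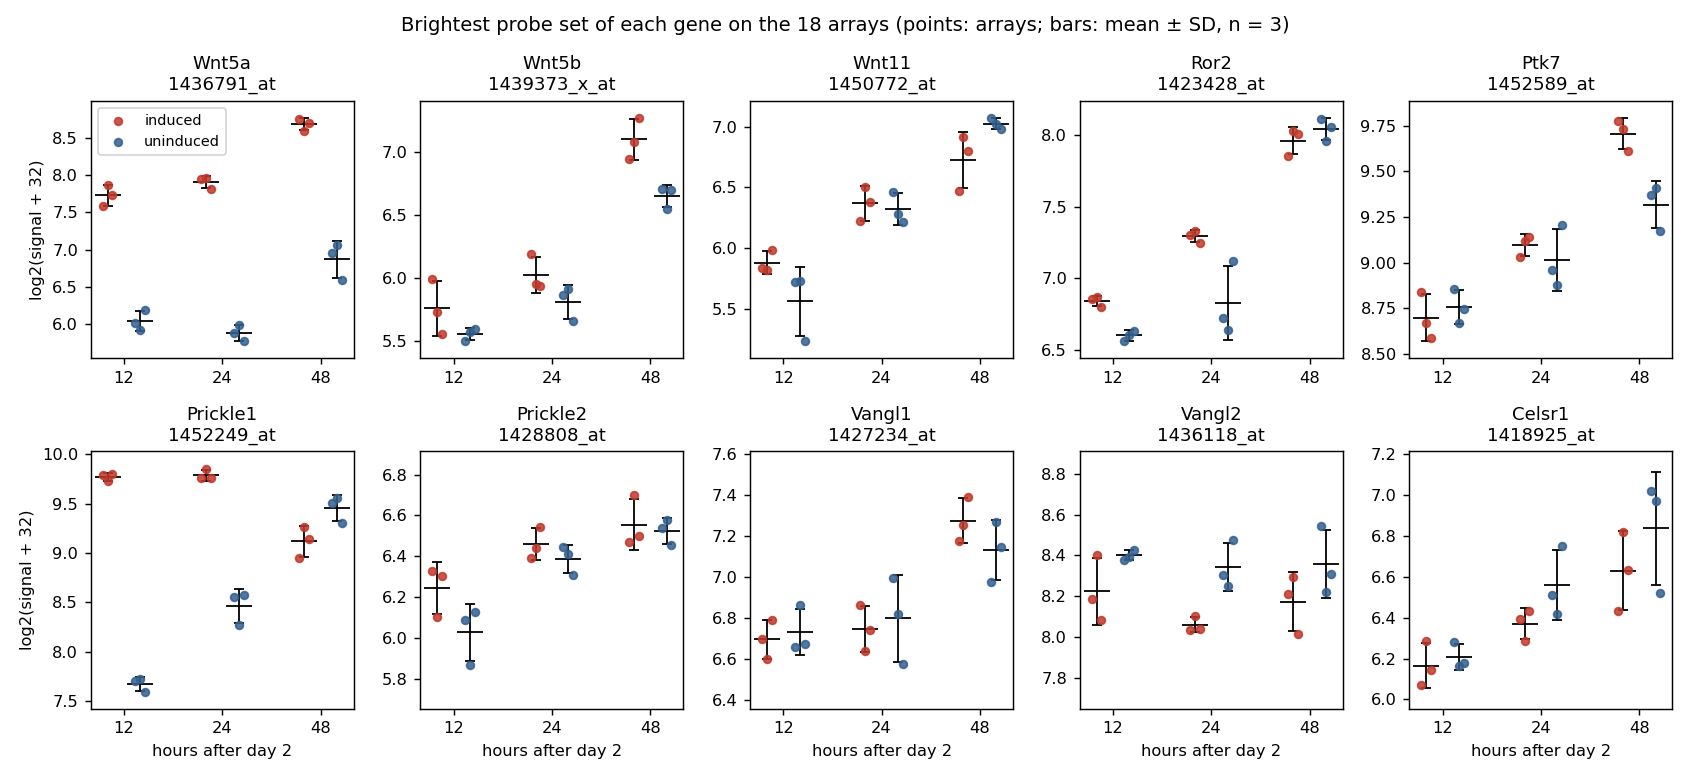
Each panel shows log2(signal + 32) of the brightest probe set of 1 gene on the 18 arrays, with induced arrays left of uninduced arrays at 12, 24 and 48 h. Points are arrays and bars are the mean ± SD of 3 arrays; each panel has its own vertical scale. Wnt5a separates the groups at all 3 times, and Prickle1 has its induced arrays above at 12 and 24 h and below at 48 h.

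Among the ligands, Wnt5a had 4 probe sets. The brightest, 1436791_at, read 160, 201 and 181 in induced arrays at 12 h, against 32.7, 28.8 and 40.9 in uninduced arrays. At 24 h it read 216, 217 and 193 in induced arrays, against 27.0, 31.4 and 22.9 in uninduced arrays. At 48 h it read 399.9, 354 and 384 in induced arrays, against 91.8, 102 and 64.7 in uninduced arrays. No induced array overlapped with an uninduced array of any time, and the lowest induced value, at 12 h, lay above the highest uninduced value, at 48 h. Its induction effect was 1.68 ± 0.12 at 12 h, 2.03 ± 0.12 at 24 h and 1.81 ± 0.12 at 48 h (log2 scale, ± SE), with adjusted p of 1.74e-08, 6.71e-10 and 1.01e-09 by limma.

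The other Wnt5a probe sets were dimmer. Probe set 1448818_at averaged 79.1 ± 9.06, 98.3 ± 4.66 and 141 ± 15.4 in induced arrays at 12, 24 and 48 h, against 21.9 ± 3.09, 24.2 ± 2.04 and 36.9 ± 5.07 in uninduced arrays (SD, n = 3 each). Probe set 1437673_at averaged 23.5, 31.2 and 48.7 in induced arrays, against 3.46, 4.26 and 14.3 in uninduced arrays. Both were called at each time, with effects of 1.04, 1.21 and 1.32 for 1448818_at and of 0.65, 0.80 and 0.81 for 1437673_at. The second of these reached the filter only through its induced arrays, since its mean over the 9 uninduced arrays lay under it, so its calls add no support to those of the others. The fourth, 1456976_at, was under the filter and not tested; it averaged 10.2, 9.72 and 12.3 in induced arrays, against 1.81, 5.71 and 6.79 in uninduced arrays, and its groups overlapped at 48 h.

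In the order of group means, Wnt5a ran from induced 48 h (379.5 ± 23.3) through induced 24 h (209 ± 13.7) and induced 12 h (181 ± 20.8) to uninduced 48 h (86.0 ± 19.1), uninduced 12 h (34.1 ± 6.15) and uninduced 24 h (27.1 ± 4.25) on probe set 1436791_at. The neighbours that overlapped were induced 24 h with induced 12 h, and uninduced 12 h with uninduced 24 h. Wnt5a also rose with time in both arms. It was higher at 48 h than at 24 h by 0.77 in induced arrays (adjusted p = 4.16e-05, limma) and by 0.99 in uninduced arrays (adjusted p = 2.41e-06, limma). The size of its induction effect did not differ between times past the threshold, with differences of 0.34 between 24 and 12 h (95% interval 0.0029 to 0.69, adjusted p = 0.747, limma) and of -0.22 between 48 and 24 h (-0.56 to 0.13, adjusted p = 0.689, limma).

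**Figure D2:**
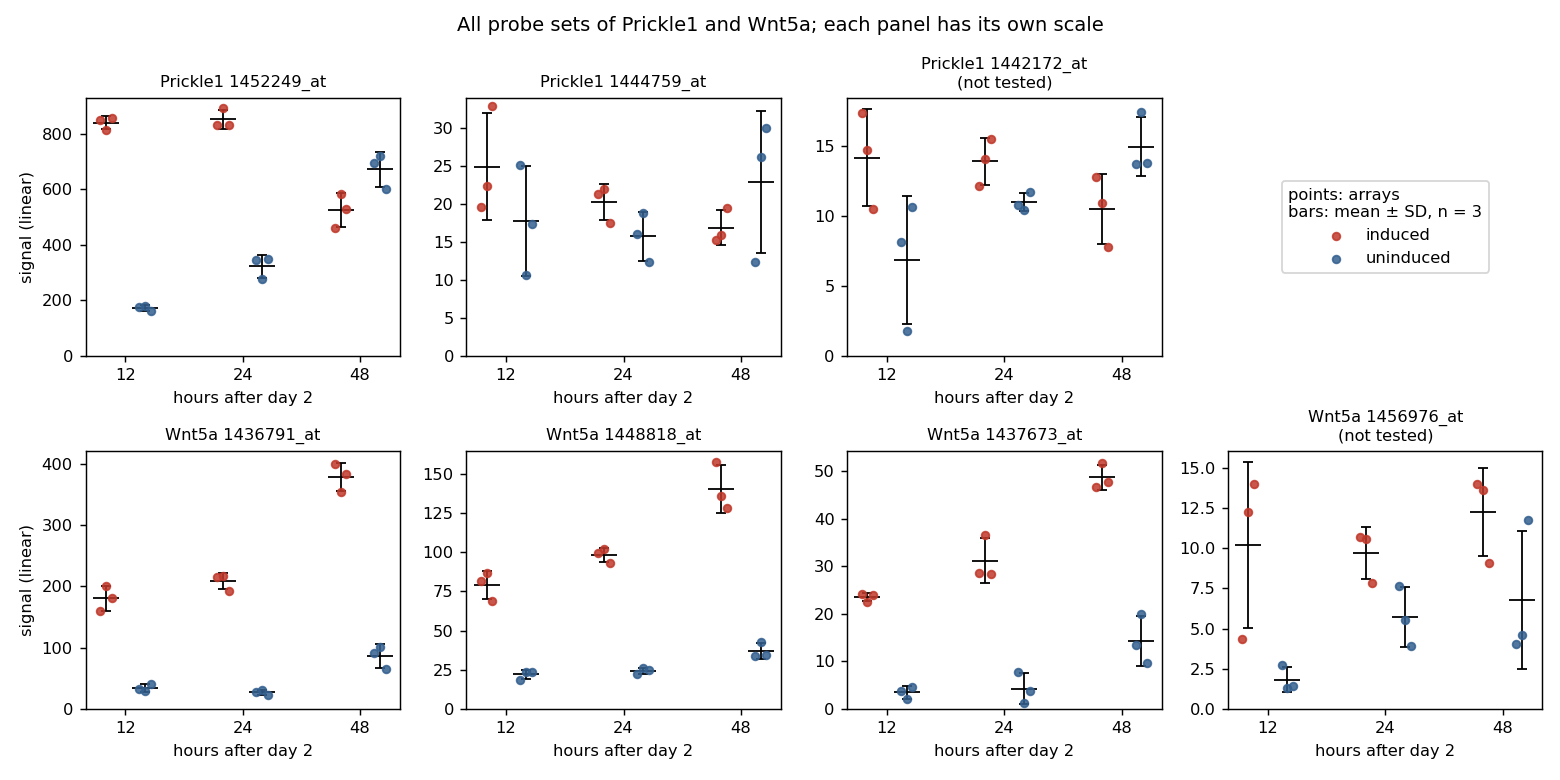
Linear signal of all 3 probe sets of Prickle1 (top row) and all 4 of Wnt5a (bottom row) on the 18 arrays, induced arrays left of uninduced arrays at each time; points are arrays, bars the mean ± SD of 3 arrays, and each panel has its own axis that starts at 0. The 3 tested Wnt5a probe sets separate the groups at each time, while of the Prickle1 probe sets only 1452249_at does so at each time. Wnt5a 1437673_at reached the filter only through its induced arrays and adds no support.

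Wnt5b, a close paralog of Wnt5a, was read by 2 probe sets. At 48 h 1422602_a_at read 77.6, 77.0 and 91.3 in induced arrays, against 55.3, 49.2 and 56.0 in uninduced arrays. Probe set 1439373_x_at, whose suffix marks probes that may match other transcripts, read 91.7, 104 and 123 in induced arrays, against 72.9, 61.8 and 72.0 in uninduced arrays. All induced arrays lay above all uninduced arrays on both. The effects were 0.41 and 0.45 (adjusted p = 0.0153 and 0.0202, limma), and both calls were lost without uninduced 48 h replicate 2 (0.0666 and 0.0900) or without induced 48 h replicate 3 (0.0862 and 0.120). At 12 and 24 h neither was called, with effects of 0.20 to 0.32.

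Wnt11, a ligand of convergent extension, had 1 probe set, 1450772_at, and no called induction effect. It averaged 27.0 ± 3.84, 50.8 ± 8.08 and 74.8 ± 16.6 in induced arrays at 12, 24 and 48 h, against 15.8 ± 8.80, 48.1 ± 7.41 and 98.3 ± 4.05 in uninduced arrays (SD, n = 3 each). The effects were 0.32 (95% interval 0.035 to 0.60), 0.05 (-0.24 to 0.33) and -0.30 (-0.58 to -0.015), with adjusted p of 0.410, 0.941 and 0.203 by limma. At 48 h the 3 induced arrays, at 56.4, 88.8 and 79.2, all lay below the 3 uninduced arrays, at 103, 97.9 and 94.4.

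Ror2, the receptor tyrosine kinase that binds Wnt5a, was bright enough to test on probe set 1423428_at. At 24 h it read 126, 129 and 120.2 in induced arrays, against 73.7, 68.0 and 107 in uninduced arrays. The groups did not overlap, with an effect of 0.47 ± 0.10 (log2 scale, ± SE, adjusted p = 0.0148, limma). The uninduced array at 107 stood apart from its other two. Without uninduced 24 h replicate 1, uninduced 24 h replicate 2 or induced 24 h replicate 2 the adjusted p was 0.0888, 0.0914 and 0.0733, and with the arrays of this comparison alone it was 0.175.

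At 12 h Ror2 averaged 82.8 ± 2.98 in induced arrays and 65.2 ± 2.37 in uninduced arrays without overlap, and was not called (0.24, adjusted p = 0.424, limma). At 48 h it averaged 217 ± 16.2 in induced arrays and 232 ± 13.7 in uninduced arrays, and the arrays overlapped (-0.08, 95% interval -0.30 to 0.14). Its highest level in either arm was thus at 48 h. The uninduced arm rose by 1.44 between 12 and 48 h (adjusted p = 1.21e-09, limma) and the induced arm by 1.12 (adjusted p = 2.92e-08, limma). A second Ror2 probe set, 1457128_at, averaged at most 18.8 in any group and was not tested.

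Ptk7, a pseudokinase receptor that takes part in planar polarity in vertebrates, was read by 1452589_at. At 48 h it read 845, 817 and 751 in induced arrays, against 631, 648 and 545 in uninduced arrays, again without overlap. The effect was 0.39 ± 0.09 (log2 scale, ± SE, adjusted p = 0.00846, limma), and without uninduced 48 h replicate 3 the adjusted p was 0.0662. At 12 h Ptk7 averaged 385 ± 37.2 in induced arrays and 402 ± 28.6 in uninduced arrays, and at 24 h 516 ± 22.1 in induced arrays and 488 ± 63.4 in uninduced arrays (SD, n = 3 each). The groups overlapped at both of these times.

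Among the core components, Prickle1, a cytoplasmic LIM-domain protein of the core complex, changed most. Its probe set 1452249_at read 851, 815 and 857 in induced arrays at 12 h, against 177, 179 and 162 in uninduced arrays. At 24 h it read 832, 894 and 834 in induced arrays, against 344, 276 and 349.7 in uninduced arrays. At 48 h it read 462, 583 and 531 in induced arrays, against 697, 720.2 and 601 in uninduced arrays. The groups did not overlap at any time, and their order at 48 h was the opposite of that at 12 and 24 h.

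The induction effect on Prickle1 was 2.09 ± 0.09 at 12 h (log2 scale, ± SE, adjusted p = 1.75e-11, limma). On this scale that was the largest rise among the 23004 probe sets, but the scale understates the change of dim ones. As a ratio of mean signals at 12 h, Rasgrp3 (154 induced, 16.7 uninduced) and Cited1 (90.9 and 7.39) rose more than Prickle1 (841 and 173). The induction effect on Prickle1 was 1.32 at 24 h (adjusted p = 1.48e-08, limma) and -0.34 at 48 h (adjusted p = 0.0226, limma). The 48 h call was lost in 5 alternatives. Its adjusted p was 0.0910 without uninduced 48 h replicate 1, 0.108 without uninduced 48 h replicate 2, 0.144 without induced 48 h replicate 1, 0.0561 without induced 48 h replicate 3 and 0.0507 with the arrays of the comparison alone.

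The time courses of the 2 arms crossed. In uninduced arrays Prickle1 rose by 0.79 between 12 and 24 h (adjusted p = 0.000301, limma) and by 0.99 between 24 and 48 h (adjusted p = 1.31e-07, limma). In induced arrays it differed by 0.02 between 24 and 12 h (adjusted p = 0.925, limma) and fell by 0.67 between 24 and 48 h (adjusted p = 1.72e-05, limma). By group means the order ran from induced 24 h (853 ± 34.9), induced 12 h (841 ± 23.0), uninduced 48 h (673 ± 63.1) and induced 48 h (526 ± 60.5) to uninduced 24 h (323 ± 41.2) and uninduced 12 h (173 ± 9.50), and the only neighbours that overlapped were the first 2.

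The change in its induction effect was itself called. The effect was lower at 24 h than at 12 h by a difference of -0.77 ± 0.13 (adjusted p = 0.0234, limma), at 48 h than at 24 h by -1.66 ± 0.13 (adjusted p = 1.07e-06, limma) and at 48 h than at 12 h by -2.43 ± 0.13 (adjusted p = 4.06e-10, limma). Over all probe sets 0.0565%, 2.16% and 3.91% were called in these differences, and no other member probe set was. The first of them was lost in 10 alternatives. These were the replicate block (adjusted p = 0.0515), averaging the probe sets of a gene (0.199), the fit without a variance trend (0.0654) and leaving out any 1 of 7 arrays, namely uninduced 12 h replicates 1 and 3, each induced 12 h replicate, uninduced 24 h replicate 1 and induced 24 h replicate 3 (adjusted p up to 0.0833). Ror2 between 48 and 24 h (-0.55, adjusted p = 0.0567, limma) was not called, and passed the threshold under 4 of the alternatives. Between 48 and 12 h Ptk7 (0.45, adjusted p = 0.0641, limma) and Wnt11 (-0.62, adjusted p = 0.0833, limma) were not called, and passed it under 6 and 1.

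Of the 2 other Prickle1 probe sets, 1 was tested and had no call. This probe set, 1444759_at, averaged 24.9 ± 6.98, 20.2 ± 2.41 and 16.8 ± 2.31 in induced arrays at 12, 24 and 48 h, against 17.7 ± 7.21, 15.7 ± 3.25 and 22.8 ± 9.29 in uninduced arrays (SD, n = 3 each). Its effects of 0.20, 0.13 and -0.15 have the same signs as those of 1452249_at, but the arrays overlapped at each time and none was called. Probe set 1442172_at was too dim to be tested. It averaged 14.2, 13.9 and 10.5 in induced arrays, against 6.84, 10.96 and 15.0 in uninduced arrays. Its arrays overlapped at 12 h, whereas at 24 h the induced arrays lay above the uninduced arrays and at 48 h below them, in the same order as on 1452249_at. The nearest arrays lay close, at 12.1 (induced) and 11.7 (uninduced) at 24 h, and at 12.8 and 13.7 at 48 h. At such dim signal this order adds no support to that of 1452249_at. Which transcripts of Prickle1 these probe sets read is not given in the sources used here.

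The RefSeq promoter windows of Prickle1 and Ror2, 2 of the 3 members called higher at 24 h, are shown because Msgn1 belongs to a family that binds E-boxes, CANNTG. Windows run 250 bases before to 50 after an annotated start in GRCm38.p6, both genes lie on the minus strand, and capitals mark E-boxes. Prickle1 window 1 is chr15:93595853-93596152, Prickle1 window 2 is chr15:93519471-93519770 and the Ror2 window is chr13:53286075-53286374.
Prickle1 window 1: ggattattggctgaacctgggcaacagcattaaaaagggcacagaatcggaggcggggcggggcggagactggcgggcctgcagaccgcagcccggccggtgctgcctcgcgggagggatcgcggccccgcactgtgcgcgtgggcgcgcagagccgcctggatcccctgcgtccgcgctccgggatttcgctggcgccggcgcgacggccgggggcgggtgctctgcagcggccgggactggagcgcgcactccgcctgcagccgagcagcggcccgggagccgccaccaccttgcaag
Prickle1 window 2: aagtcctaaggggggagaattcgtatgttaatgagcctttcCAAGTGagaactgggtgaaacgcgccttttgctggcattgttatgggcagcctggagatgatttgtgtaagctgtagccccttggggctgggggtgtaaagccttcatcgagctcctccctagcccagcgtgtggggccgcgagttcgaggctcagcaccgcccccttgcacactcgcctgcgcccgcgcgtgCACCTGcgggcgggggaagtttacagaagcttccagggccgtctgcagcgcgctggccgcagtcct
Ror2 window: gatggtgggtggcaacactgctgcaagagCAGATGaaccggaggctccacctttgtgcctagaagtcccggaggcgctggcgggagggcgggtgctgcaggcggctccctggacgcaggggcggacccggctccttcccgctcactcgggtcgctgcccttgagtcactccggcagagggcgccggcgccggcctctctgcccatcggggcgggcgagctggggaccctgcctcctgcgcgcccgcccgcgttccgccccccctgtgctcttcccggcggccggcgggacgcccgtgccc
The first Prickle1 window held no E-box, the second held 2 and that of Ror2 held 1.

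RefSeq windows were matched for 7 of the 10 genes, 14 windows in all; Wnt5a, Vangl1 and Celsr1 were not matched in the table used here. E-boxes, read alike on both strands, stood in 10 of the 14 windows (71.4%), against 72.3% of all 32851 windows. Of the other motifs, searched on both strands, CTTTGAT was in 3 windows, those of Prickle2, Wnt5b and Wnt11, against 3.73% of all windows, and GTGGGAA was in 1, that of Ptk7, against 6.38%. CATTTG, which is 1 form of the E-box, CTTTGAA and TCACACC were in none, against 13.7%, 5.14% and 3.98% of all windows. Several windows of a gene share that gene, and a match is a run of letters and not a shown binding site.

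Prickle2, the paralog of Prickle1, averaged 44.0 ± 6.45, 56.1 ± 4.81 and 62.3 ± 8.31 in induced arrays at 12, 24 and 48 h on 1428808_at, against 33.4 ± 6.14, 51.8 ± 3.97 and 60.04 ± 3.98 in uninduced arrays (SD, n = 3 each). Its effects were 0.22, 0.07 and 0.03, and none was called. Its mean was higher in induced arrays at each time, but the arrays of the 2 arms overlapped at 12, 24 and 48 h.

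The 4-pass membrane proteins Vangl1 and Vangl2, which bind Prickle, had 5 probe sets between them and no called effect. The brightest Vangl2 probe set, 1436118_at, averaged 269 ± 34.7, 235 ± 7.09 and 258 ± 28.4 in induced arrays, against 306 ± 5.95, 293 ± 26.9 and 297 ± 39.1 in uninduced arrays. At 24 h the 3 induced arrays, at 231, 243 and 232, lay below the uninduced arrays, at 284, 272 and 324, with an effect of -0.28 (adjusted p = 0.178, limma). The 2 other Vangl2 probe sets, 1419218_at and 1455592_at, had effects of 0.03 and 0.18 at that time. On 1455592_at all induced arrays lay below all uninduced arrays at 48 h, with an effect of -0.29 (adjusted p = 0.135, limma).

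Vangl1 averaged 71.7 ± 6.92, 75.6 ± 8.44 and 123 ± 12.0 in induced arrays on 1427234_at, against 74.5 ± 8.52, 80.0 ± 16.2 and 109 ± 14.2 in uninduced arrays. On 1441097_at the induced 48 h arrays read 36.5, 112 and 61.2, an SD of 38.4, against 64.7, 65.9 and 54.7 in uninduced arrays. Celsr1, the seven-pass cadherin, averaged 39.9 ± 5.56, 50.8 ± 4.28 and 67.6 ± 13.3 in induced arrays, against 42.0 ± 3.33, 62.8 ± 11.5 and 83.7 ± 20.8 in uninduced arrays, and its arrays overlapped at each time. Its effects were -0.04, -0.19 and -0.21. Across the uncalled member probe sets the 95% intervals reached from -0.51 to 0.60 at 12 h, from -0.49 to 0.62 at 24 h and from -0.58 to 0.42 at 48 h.

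**Figure D3:**
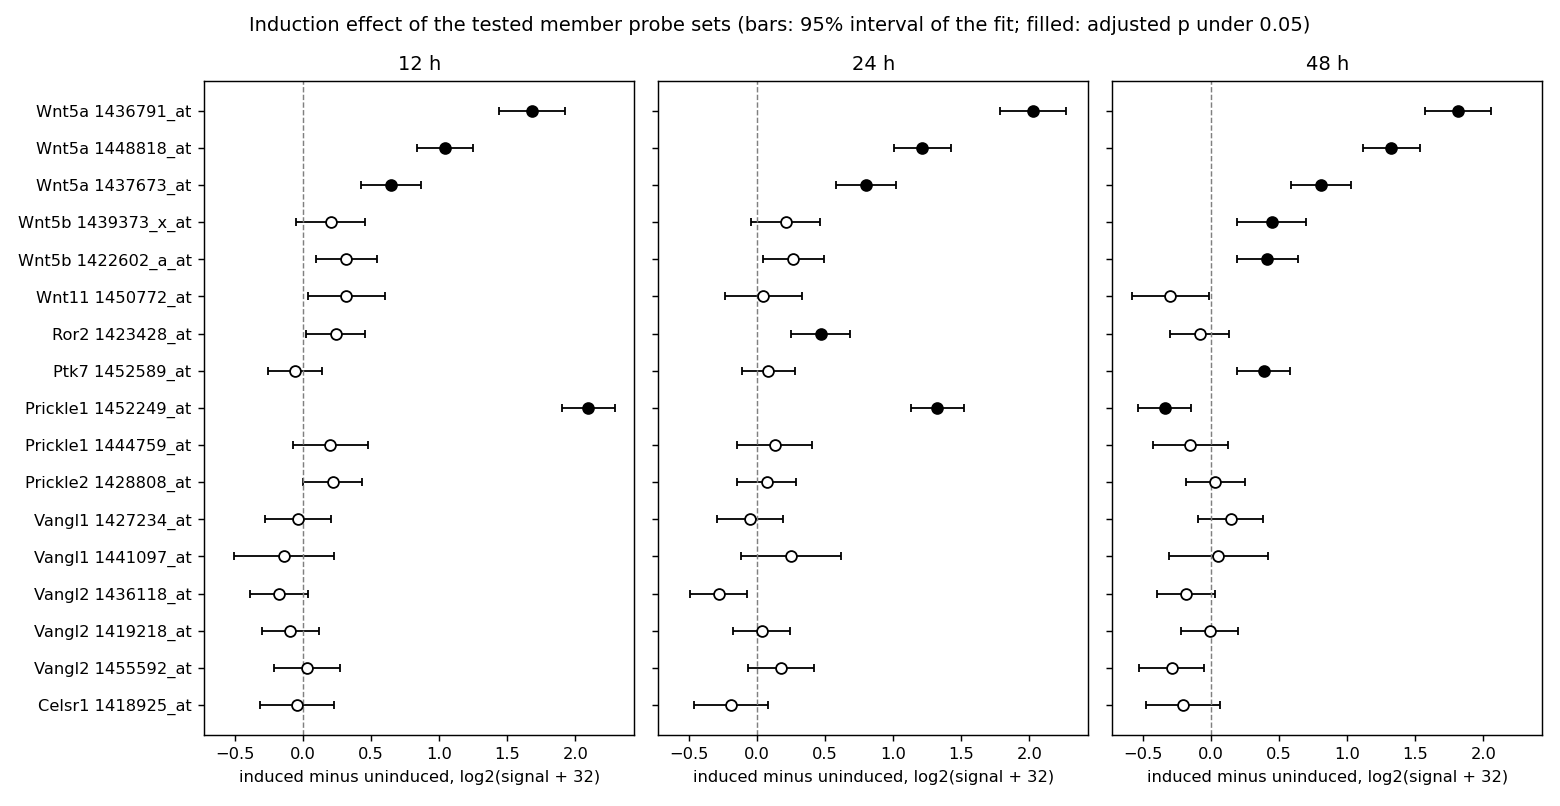
Induced minus uninduced difference of log2(signal + 32) for the 17 tested probe sets at 12, 24 and 48 h, with the 95% interval of the limma fit; filled points have an adjusted p under 0.05. The 3 Wnt5a probe sets lie right of 0 in every panel, though 1437673_at reached the filter only through its induced arrays and adds no support. Prickle1 1452249_at moves from 2.09 at 12 h to -0.34 at 48 h, and the Vangl1, Vangl2, Celsr1, Prickle2 and Wnt11 probe sets have open points throughout.

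Without induction most member probe sets rose over time. Between 12 and 48 h 14 of the 17 probe sets, from all 10 genes, were called higher in uninduced arrays and none lower by limma, while 30.7% of all probe sets were called and 17.8% were called higher. The median change of the 17 was 0.50, against 0.02 for all. After Prickle1 the largest rises were those of Wnt11 (1.46, adjusted p = 4.51e-08, limma), Ror2 and Wnt5b (1.17 and 1.10). The call of Vangl1 1441097_at (0.48) was lost in 8 alternatives, and those of Vangl1 1427234_at (0.40) and of 2 Wnt5a probe sets (0.38 and 0.35) in 1 or 2. The 3 probe sets not called were 1444759_at of Prickle1 and 2 of the 3 of Vangl2, 1419218_at (0.17, adjusted p = 0.228, limma) and the brightest, 1436118_at (-0.044, adjusted p = 0.794, limma).

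More of them, as of all probe sets, were called between 24 and 48 h than between 12 and 24 h, the shorter interval. Between 12 and 24 h 2 member probe sets were called in uninduced arrays, Prickle1 and Wnt11 (0.76, adjusted p = 0.00489, limma), where 2.86% of all were called. Between 24 and 48 h 12 were called, where 21.9% of all were. Of those, the smaller rises of Vangl1 (0.33 and 0.50), Ptk7 (0.30) and 2 Wnt5a probe sets (0.35 and 0.29) were lost in 4 to 20 of the alternatives each, and without uninduced 24 h replicate 2 or uninduced 48 h replicate 2 the count was 7.

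In induced arrays 12 member probe sets were higher and 1, Prickle1, was lower at 48 h than at 12 h, where 38.2% of all were called. Wnt5b had the largest rise (1.34 and 1.26), followed by Ror2 and Ptk7 (1.01, adjusted p = 2.65e-08, limma). The call of Prickle2 (0.31) was lost with quantile normalization (adjusted p = 0.0892, limma) and without induced 12 h replicate 2 (0.118) or induced 48 h replicate 2 (0.111), and without the last that of Celsr1 (0.46) was lost too (0.0507). Between 12 and 24 h 3 were called higher, where 11.9% of all were, namely Ptk7 (0.40), Ror2 (0.45) and Wnt11 (0.49), of which Ptk7 was lost in 1 alternative and Wnt11 in 3. Between 24 and 48 h 8 were higher and 1, Prickle1, lower, where 22.6% of all were called. Among these the rise of Wnt5a 1437673_at (0.36) was lost without induced 24 h replicate 1, induced 24 h replicate 3 or induced 48 h replicate 2 (adjusted p = 0.066, 0.0625 and 0.0581, limma). The courses of the 2 arms are given side by side without a test, except for the differences between effects above.

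The genes whose 6 group means ran most like those of Wnt5a, out of 12378 genes compared, were Dll3, Rasgrp3, Cited1, Igfbp4 and Greb1l. Likeness was the root mean square difference between centred group means on the log2 scale, at 0.21 for Dll3, 0.23 for Rasgrp3 and 0.33 to 0.46 for the others, with the group means of Wnt5a itself spread by 1.01. Dll3, a Notch pathway gene of the presomitic mesoderm, averaged 489.6, 684 and 740.2 in induced arrays at 12, 24 and 48 h, against 124, 132 and 254 in uninduced arrays. Dll3 and Cited1 also stand in the list of presomitic mesoderm markers given last.

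For Prickle1 the likest genes were Fabp7, Cotl1, Pdzrn3, Sema3f and Wfdc2, at 0.41 to 0.46 with its own spread at 0.76. No gene was thus as close to Prickle1 as the 3 nearest were to Wnt5a. Pdzrn3, a ubiquitin ligase, averaged 509, 504 and 294 in induced arrays, against 201, 349 and 345 in uninduced arrays, and so had a lower mean in induced arrays at 48 h. Fabp7, a fatty acid binding protein, averaged 149, 327 and 219 in induced arrays, against 38.1, 56.1 and 142 in uninduced arrays, with the higher mean in induced arrays at each time.

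The rest of the pathway was read from a list of 66 genes, of which 62 had a probe set and 59 passed the filter. At 12 h 2 were called higher and none lower, and at 24 h 3 higher and 1 lower, where 0.774% and 2.76% of all probe sets were called. Dact1, a Dishevelled-binding regulator, averaged 225 ± 15.3 in induced arrays and 83.2 ± 1.74 in uninduced arrays at 12 h, and 326 ± 38.3 in induced arrays and 99.2 ± 6.73 in uninduced arrays at 24 h (effects 1.16 and 1.44). Ankrd6, the vertebrate Diversin, was higher by 0.65 and 0.48 at these times. Rspo3, a secreted R-spondin, was higher at 24 h by 0.86, and the syndecan Sdc4, at 533 ± 31.8 in induced arrays and 741 ± 32.9 in uninduced arrays, was lower by a change of -0.45.

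At 48 h 6 of the 59 were called higher and 11 lower, where 9.78% of all probe sets were called. The heparan sulfate proteoglycans Gpc3 (1.11) and Gpc6 (0.84) and Rspo3 (0.98) were higher. The Frizzled receptor Fzd8 averaged 24.7 ± 6.41 in induced arrays and 82.6 ± 11.3 in uninduced arrays (-1.02), Fzd5 averaged 121 ± 17.02 in induced arrays and 259 ± 34.4 in uninduced arrays (-0.93), and Dact2 was lower by a change of -0.65. The median effect of the 59 was -0.0080, 0.045 and -0.013 at 12, 24 and 48 h. In uninduced arrays 25 of the 59 were called higher and 3 lower between 12 and 48 h, with a median of 0.19, where 30.7% of all probe sets were called.

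**Figure D4:**
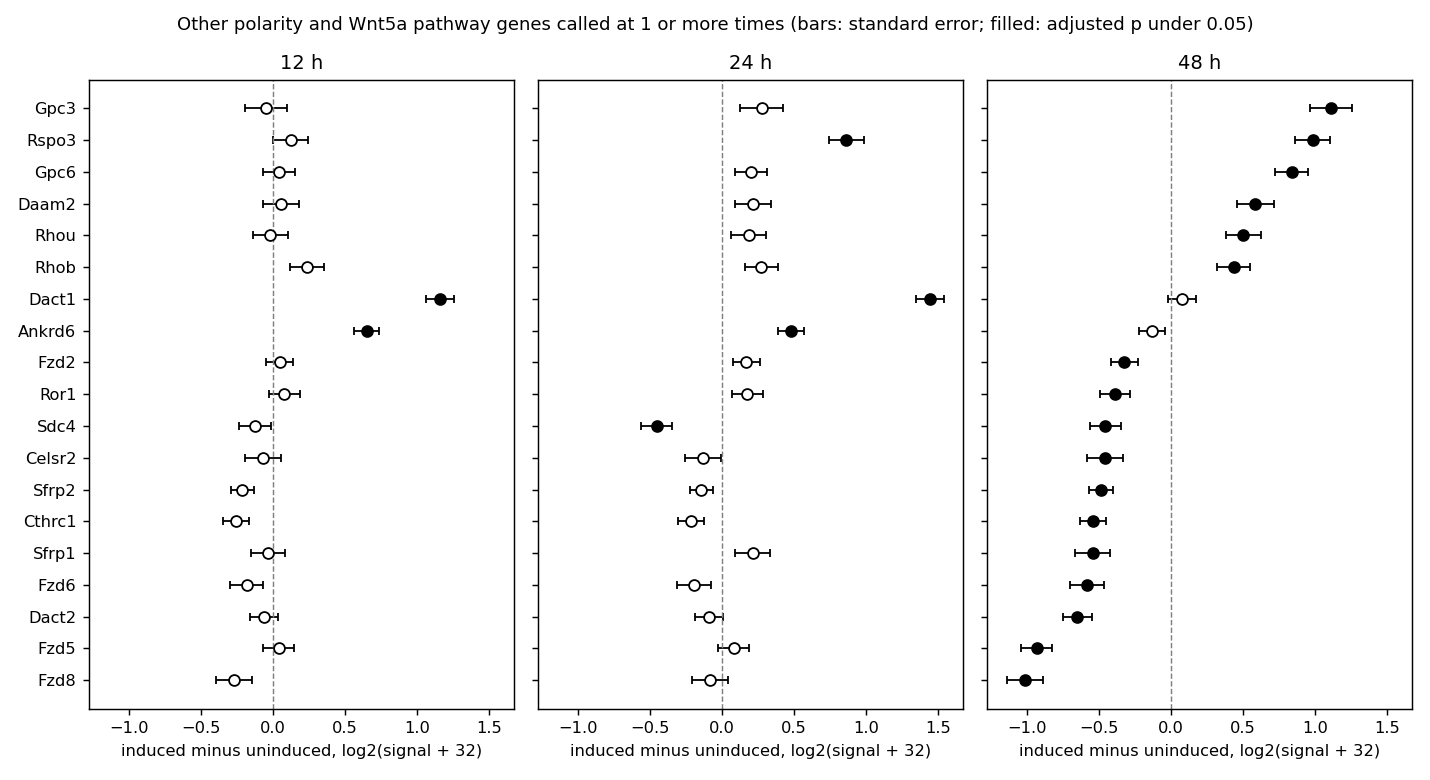
Induced minus uninduced difference of log2(signal + 32), with its standard error, for the 19 other pathway genes called at 1 or more of the 3 times, sorted by their 48 h effect; filled points have an adjusted p under 0.05. Dact1 and Ankrd6 are filled at 12 and 24 h only, and most filled points lie in the 48 h panel, 6 right and 11 left of 0.

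Some lists of cell type markers differed between the arms. At 12 h only the presomitic mesoderm list held called markers, and other lists had calls at 24 or 48 h. The summed signal of 15 feeder fibroblast markers, none of them at 0, was 1522 to 1822 in induced arrays and 1407 to 1544 in uninduced arrays at 12 h, 1609 to 1663 in induced arrays and 1456 to 1603 in uninduced arrays at 24 h, and 1492 to 1760 in induced arrays and 1089 to 1313 in uninduced arrays at 48 h. Of the 15, 0, 2 and 4 were called higher at 12, 24 and 48 h and none lower. Fibroblasts can express Wnt5a, and the part of feeder cells in its signal was not tested. In bulk RNA, fewer cells of a type and less RNA per cell cannot be told apart.

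The summed signal of 8 presomitic mesoderm markers was 987 to 1033 in induced arrays and 278 to 306 in uninduced arrays at 12 h, 1139 to 1224 in induced arrays and 318 to 370.4 in uninduced arrays at 24 h, and 1706 to 1857 in induced arrays and 673 to 775 in uninduced arrays at 48 h. It thus separated the arms at each time, as Wnt5a did. The sum includes Rspo3, and also Dll3 and Cited1, named above for their likeness to Wnt5a, so its likeness to Wnt5a is no separate support. At 12 h Dll3 alone averaged 489.6 in induced and 124 in uninduced arrays, where the sums averaged 1013 and 292. Of its 7 tested markers 3, 5 and 6 were called higher at 12, 24 and 48 h and none lower. Ripply2 was under the filter and stands in the sum untested. The 7 primitive streak and early mesoderm markers summed to 716 to 759 in induced arrays and 497 to 612 in uninduced arrays at 12 h, to 2021 to 2821 in induced arrays and 783 to 1262 in uninduced arrays at 24 h, and to 7252 to 9194 in induced arrays and 6271 to 7990 in uninduced arrays at 48 h, where the arms overlapped. Of the 7, 0, 5 and 2 were called higher at 12, 24 and 48 h, and the time of the 5 calls was that of the Ror2 call.

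Other marker lists moved at 48 h, when Wnt5b and Ptk7 were called higher and Prickle1 lower. The 8 markers of pluripotent cells and epiblast summed to 15911 to 21231 in induced arrays and 23809.9 to 27825 in uninduced arrays at that time, and 7 of them were called lower. At 12 and 24 h none of the 8 was called. The 6 endothelium and blood markers summed to 723 to 859 in induced arrays and 186 to 257 in uninduced arrays at 48 h, with 3 called higher. At 24 h they summed to 257 to 302 in induced arrays and 147 to 212 in uninduced arrays, with 1 called higher. No marker in these lists was at 0. Among the extraembryonic endoderm markers 1 of 3 tested was called higher at 24 h and 1 at 48 h, among the trophoblast markers 1 of 4 at 48 h, and of the 4 neural markers tested none was called at any time. The part of a change in cell makeup in the effects above was not tested.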

How the data were processed

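Expression was measured on 18 single-channel Affymetrix arrays. The authors deposited 1 linear signal intensity per probe set and array, and the submitters' processing notes name GCOS. The algorithm behind the signal, its background correction and the genome build are each not given in the sources used here. All arrays had a 2% trimmed mean of 150, which shows a scaling of each array before deposit. Per the labels' protocols, 100 ng of RNA with an integrity number above 9 was labelled with biotin.

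Of 45101 probe sets, 64 were controls, 34945 had 1 gene symbol in the platform annotation, 932 several and 9160 none. Intensities were transformed to log2(signal + 32) with no further normalization, since log2 medians lay within 0.092 of each other. A probe set of 1 gene was kept if its mean over the 18 arrays reached the 40th percentile of all values (signal 13.3), which left 23004 probe sets of 12965 genes. Limma 3.58.1 in R 4.3.3 fitted 1 mean per group with 12 residual degrees of freedom and an intensity trend in the variances. P-values were 2-sided and adjusted by the Benjamini-Hochberg method over the 23004 probe sets in each contrast. Contrasts were the induction effect at every time, later minus earlier within each arm, and the differences between induction effects. The number of arrays limits the precision. Python 3.11.15 with matplotlib 3.10.9 drew the figures.

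All member genes are described. For each induction contrast up to 6 called genes of the other pathway list with the largest changes are named, and for members called in at least 2 induction contrasts the 5 genes of likest group means, passing over clone names and predicted genes. The members, lists and tests were chosen with earlier results of these data known.

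Arrays share replicate numbers across groups. At 24 h same-numbered induced and uninduced arrays deviated together, with correlations of 0.23, 0.15 and 0.48 across probe sets. Replicates 1 and 2 did so across numbers as well, at 0.23 for induced 1 with uninduced 2 and 0.12 for induced 2 with uninduced 1. Replicate 3 of either arm lay at -0.37 to -0.21 with replicates 1 and 2 of the other. The correlations thus do not show that the numbers pair replicates 1 and 2. At 12 h (0.014, 0.077 and -0.083) and 48 h (-0.10, -0.040 and 0.14) same-numbered arrays did not deviate together. Alternatives were quantile normalization, other filters and offsets, gene-level values, probe sets of several genes or none added, other variance settings, the arrays of a comparison alone, 2 replicate blocks and leaving out each array in turn.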

Additional observations from a re-analysis of the deposited data

Results flagged for a closer look

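The induction effect on Prickle1 (probe set 1452249_at) differed between times, by a test of the difference itself. It was lower at 24 h than at 12 h by a difference of -0.77 on the log2 scale, at 48 h than at 24 h by -1.66, and at 48 h than at 12 h by -2.43. All 3 induced arrays lay above all 3 uninduced arrays at 12 and 24 h and below them at 48 h. The call between 24 and 12 h was lost in 10 of 32 alternatives, among them the replicate block (adjusted p = 0.0515, limma), the mean over the probe sets of a gene (0.199) and the fit without a variance trend (0.0654), whereas the other two kept theirs. The same arrays enter these 3 differences, so they are not independent of each other.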

How the results depend on the processing

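Each of the 204 results of a member probe set was recomputed under 28 to 32 alternatives, out of 14 settings and 18 left-out arrays, since some settings do not hold every probe set or contrast. Of 72 called results 52 kept their call wherever they were tested, and none of the 72 changed sign. Among the 52 were the induction effects of Wnt5a 1436791_at and 1448818_at at every time and those of Prickle1 1452249_at at 12 and 24 h. Those of Wnt5a 1437673_at were kept too but add no support, since this probe set reached the filter only through its induced arrays. The 39 results that changed sign somewhere were uncalled; the listing gives them all, and the cause was not tested.

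Quantile normalization turned Vangl2 1419218_at to -0.00073 (induced minus uninduced, 24 h) and -0.059 (uninduced, 48 minus 24 h), 1436118_at to -0.032 (the same contrast) and 1455592_at to -0.030 (induced, 48 minus 24 h). It turned Vangl1 1427234_at to -0.0078 (induced, 24 minus 12 h), Wnt5a 1437673_at to -0.00097 (uninduced, 24 minus 12 h) and -0.042 (difference of effects, 48 and 24 h), and Celsr1 to 0.0031 (that difference). Averaging the probe sets of a gene turned Vangl2 to 0.022 and 0.19 (uninduced, 24 and 48 h minus 12 h), 0.078 and 0.11 (induced, likewise), and 0.056 and -0.14 (differences of effects, 24 minus 12 h and 48 minus 24 h). It turned Vangl1 to 0.10 (induction, 24 h), 0.19 and -0.0010 (the 2 differences), Wnt5b to -0.021 (difference, 24 and 12 h) and Prickle1 to -0.049 (induced, 24 minus 12 h). An offset of 16 turned differences of effects to -0.0019 for Wnt5b 1439373_x_at (24 and 12 h), -0.12 for Wnt5a 1437673_at (48 and 24 h), and -0.0018 for Wnt5a 1436791_at and -0.023 for Wnt5b 1422602_a_at (48 and 12 h).

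With 1 array left out, induction effects that changed sign ranged at 12 h from -0.085 to 0.028 (Vangl1 1427234_at), -0.011 to 0.075 (Vangl2 1455592_at) and -0.10 to 0.0050 (Celsr1). At 24 h the ranges were -0.16 to 0.049 (Vangl1 1427234_at), -0.021 to 0.12 (Wnt11) and -0.064 to 0.094 (Vangl2 1419218_at), and at 48 h -0.040 to 0.033 (Vangl2 1419218_at), -0.039 to 0.076 (Prickle2) and -0.23 to 0.31 (Vangl1 1441097_at). Uninduced changes ranged between 12 and 24 h from -0.16 to 0.054 (Prickle1 1444759_at), -0.040 to 0.092 (Wnt5a 1437673_at), -0.060 to 0.032 (Vangl1 1441097_at) and -0.035 to 0.18 (Vangl1 1427234_at). Those of Vangl2 ranged from -0.044 to 0.059 (1419218_at) and -0.078 to 0.083 (1436118_at) between 24 and 48 h, and from -0.14 to 0.025 (1436118_at) between 12 and 48 h. Induced changes ranged from -0.013 to 0.037 (Prickle1 1452249_at) and -0.0059 to 0.11 (Vangl1 1427234_at) between 12 and 24 h, from -0.10 to 0.053 (Vangl2 1419218_at) and -0.071 to 0.17 (Vangl2 1455592_at) between 24 and 48 h, and from -0.12 to 0.038 (Vangl2 1436118_at) between 12 and 48 h. Differences of effects between 24 and 12 h ranged from -0.12 to 0.087 (Vangl1 1427234_at), -0.17 to 0.039 (Prickle1 1444759_at), -0.15 to 0.015 (Wnt5b 1422602_a_at) and -0.092 to 0.12 (Wnt5b 1439373_x_at). Between 48 and 24 h they ranged from -0.067 to 0.091 (Wnt5a 1437673_at), -0.18 to 0.080 (Celsr1), -0.11 to 0.053 (Vangl2 1419218_at), -0.11 to 0.0037 (Prickle2) and -0.48 to 0.056 (Vangl1 1441097_at). Between 48 and 12 h they ranged from -0.079 to 0.086 (Vangl2 1436118_at), -0.0063 to 0.16 (Wnt5b 1422602_a_at), -0.0078 to 0.23 (Wnt5a 1436791_at) and -0.089 to 0.45 (Vangl1 1441097_at).

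At gene level, where each gene has 1 value, the members called were 2, 3 and 4 by induction at 12, 24 and 48 h, 7 between 24 and 48 h in uninduced arrays (both ways of summarising) and 9 between 12 and 48 h there (the brightest probe set), and 5838 (brightest) and 5718 (mean) of all genes were called in induced arrays between 12 and 48 h, where 8782 probe sets had been. With the arrays of the comparison alone 271 probe sets were called by induction at 24 h, where 634 had been, and 139 between 12 and 24 h in uninduced arrays, where 658 had been. The replicate block left the Prickle1 difference between 24 and 12 h uncalled (adjusted p = 0.0515), so that 0 members were called there, as did averaging the probe sets of a gene and the fit without a variance trend. The replicate block within time called 25 probe sets in that difference, where 13 had been. It changed no count of calls by induction at a single time by over 1.5 times. At 24 h Ror2 kept its call under both blocks (adjusted p = 0.0216 and 0.0289, limma). Whether the numbers pair the arrays is not known, so the blocks add no support to that call. In the difference between 48 and 24 h 2 members were called with the filter at the 60th percentile and at gene level, Ror2 being the second. Between 48 and 12 h 2 were called at gene level, with the arrays of the comparison alone and with the block within time, Ptk7 being the second.

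Leaving out any of the arrays of the comparison could move these counts, and the lowest count came without induced 12 h replicate 2 (induction at 12 h), induced 24 h replicate 2 (induction at 24 h) and uninduced 12 h replicate 2 (uninduced, 12 to 24 h), where leaving out uninduced 24 h replicate 3 gave the highest. Over the left-out arrays, called probe sets ranged from 86 to 198 (induction at 12 h), 346 to 659 (24 h), 216 to 1081 (uninduced, 12 to 24 h), 1435 to 3186 (induced, 12 to 24 h) and 6 to 23 (difference between 24 and 12 h). Member probe sets ranged from 4 to 7 and member genes from 2 to 4 (induction at 48 h), member probe sets from 7 to 12 (uninduced, 24 to 48 h), and members called in the 3 differences from 0 to 1, 1 to 2 and 1 to 2.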
